A study of Homo sapiens with 12 samples.

Results

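The genes of fatty acid oxidation and of the peroxisome were followed in human cells that had lost their mitochondrial DNA (ρ° cells) and in the parental cells that kept it (ρ+ cells). The 39 genes were listed by function. Probe sets with a single gene in the platform annotation were matched to current symbols by Entrez ID, and all that matched these genes were taken. The match by ID also covers older aliases such as DCI for ECI1, PECI for ECI2 and HADHSC for HADH. Probe sets annotated with several genes were left out. This gave 59 of the 22283 probe sets of the HG-U133A array and 36 of the 39 genes. ACSL3, SCP2 and PEX13 had no probe set annotated with a single gene that matched them. No signal was analysed here for these genes, and they enter only the count of promoter motifs. A probe set holds short probes for the 3′ end of 1 transcript or of a few related ones, and its value is a signal on a linear scale that orders arrays for that probe set but not probe sets among themselves.

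RNA of 4 groups was hybridised to 12 arrays, 3 for each group. The groups were A549 ρ° and A549 ρ+, from an epithelial line of a lung adenocarcinoma, and 143BTK- ρ° and 143BTK- ρ+, from an osteosarcoma line without thymidine kinase. The ρ° cells had been grown for 3 weeks with 50 ng/ml ethidium bromide, a DNA-binding dye, and were used as mixed populations with no choice of clones, so each line has 1 depleted population. The dye was then removed, and cells of all groups were frozen, revived and passaged before RNA was taken. No dye treatment is given for the ρ+ cells, so past exposure to the dye cannot be told apart from the loss of mitochondrial DNA. All groups had the same rich medium with high glucose, 10% serum, 1 mM pyruvate and 50 µg/ml uridine, a supplement that cells without a working respiratory chain depend on. Every array had its own RNA extraction, of which 12 µg of total RNA went into the labelling. The submitters call the arrays of a group biological replicates, so p-values measure the spread between these replicates of 1 population.

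Fatty acids enter oxidation as acyl-CoA, made by synthetases such as SLC27A2 and the ACSL enzymes. Long chains cross the inner mitochondrial membrane through the carnitine shuttle and then pass repeatedly through an acyl-CoA dehydrogenase, a hydratase, a hydroxyacyl-CoA dehydrogenase and a thiolase, while auxiliary isomerases and a reductase deal with double bonds. The electrons taken by the acyl-CoA dehydrogenases leave through the electron transfer flavoprotein to ubiquinone. They so need the respiratory chain, of which mitochondrial DNA encodes essential subunits. Peroxisomes, which import their proteins with the help of peroxins, shorten very long and branched chains with a separate set of enzymes.

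The arrays of a group correlated with r between 0.900 and 0.966 over the probe sets tested in their line. Over the same probe sets the median absolute log2 difference between arrays of a group lay between 0.268 and 0.481. In each line the 13370 probe sets with the highest mean log2 signal were tested, and 11967 of these were tested in both lines. The lowest geometric mean signal kept was 17.9 in A549 and 15.0 in 143BTK-. The lines were checked against their markers. Of 8 epithelial markers, EPCAM and CLDN4 were not above the filter in A549, and the summed signal of all 8 was 5264 to 8958 in A549 ρ° arrays and 13134 to 15913 in A549 ρ+ arrays, with no overlap. KRT19, a keratin of simple epithelia, fell to a mean signal of 3.53 in A549 ρ° cells, against 409 in A549 ρ+ cells (adjusted p = 1.22e-05 by limma). That ρ° mean lay below the lowest geometric mean signal kept in A549, 17.9. KRT19 was thus tested only through its ρ+ level, and the size of its change is uncertain. KRT8, KRT18 and CDH1 fell as well, while KRT7 and ELF3 had lower means but did not pass (adjusted p = 0.12 and 0.267 by limma). KRT18 had the largest means of the 8, at 3345 in A549 ρ° cells and 8228 in A549 ρ+ cells. The 9 mesenchymal or bone markers had sums of 6570 to 8115 in A549 ρ° arrays and 5430 to 7631 in A549 ρ+ arrays, which overlapped. In A549 the means of VIM, FN1, COL1A1 and COL3A1 were higher in ρ° cells. Those of COL5A2 (201 against 324 in ρ+ cells), CDH2 (21 against 34.1), SPARC (2.97 against 29.5), TWIST1 and COL1A2 were lower. Of the 9, 7 were tested in A549 and none of these passed, while SPARC and COL3A1 were not above the filter there. In 143BTK- the sums overlapped for both lists. There KRT18, with means of 3525 in 143BTK- ρ° cells and 4570 in 143BTK- ρ+ cells, made up most of the epithelial sum, EPCAM was above the filter, and CDH1 and KRT19 were near 0. Of the mesenchymal or bone markers, SPARC averaged 734 in 143BTK- ρ° cells and 595 in 143BTK- ρ+ cells, COL1A2 and COL3A1 were not above the filter in 143BTK-, and VIM was also high in A549, at 4465 in A549 ρ° cells and 3303 in A549 ρ+ cells. The part of the lower epithelial marker signals in the A549 results below was not tested.

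Of the genes whose values follow, 5 are shown with the 250 bases before their annotated start, taken from RefSeq on GRCh38.p14 and written 5′ to 3′ along the gene. They are SLC27A2, the gene with the largest decrease, HADH, which was lower in both lines, ECI1, and the neighbours HADHA and HADHB. SLC27A2 is read from the plus strand at chr15:50181946-50182195, HADH from the plus strand at chr4:107989639-107989888 and ECI1 from the minus strand at chr16:2251588-2251837. In these 3 the capitals mark GC boxes (GGGCGG, or CCGCCC on the other strand) and CCAAT boxes (CCAAT, or ATTGG on the other strand), which do not overlap here.
SLC27A2: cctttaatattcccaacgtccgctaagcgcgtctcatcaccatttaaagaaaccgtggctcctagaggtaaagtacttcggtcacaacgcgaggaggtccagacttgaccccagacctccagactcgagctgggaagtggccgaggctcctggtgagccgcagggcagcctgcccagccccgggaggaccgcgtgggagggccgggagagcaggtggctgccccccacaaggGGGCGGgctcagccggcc
HADH: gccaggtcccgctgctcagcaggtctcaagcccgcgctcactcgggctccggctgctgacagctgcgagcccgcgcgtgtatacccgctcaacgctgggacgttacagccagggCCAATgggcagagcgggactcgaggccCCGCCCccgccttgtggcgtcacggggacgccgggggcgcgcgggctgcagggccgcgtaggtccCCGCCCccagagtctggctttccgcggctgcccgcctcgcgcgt
ECI1: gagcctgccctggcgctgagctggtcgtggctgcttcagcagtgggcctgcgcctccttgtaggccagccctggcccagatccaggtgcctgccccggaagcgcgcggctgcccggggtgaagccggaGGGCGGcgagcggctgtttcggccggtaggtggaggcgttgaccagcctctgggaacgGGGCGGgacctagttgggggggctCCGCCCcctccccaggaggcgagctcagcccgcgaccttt
The HADH window held 2 GC boxes and 1 CCAAT box, the ECI1 window 3 GC boxes and the SLC27A2 window 1 GC box. HADHA and HADHB, which encode the subunits of the trifunctional protein, start 306 bases apart on opposite strands, so that their windows cover much of the same DNA. HADHA is read from the minus strand at chr2:26244633-26244882 and HADHB from the plus strand at chr2:26244689-26244938, and the capitals mark the 194 bases that both windows hold as reverse complements.
HADHA: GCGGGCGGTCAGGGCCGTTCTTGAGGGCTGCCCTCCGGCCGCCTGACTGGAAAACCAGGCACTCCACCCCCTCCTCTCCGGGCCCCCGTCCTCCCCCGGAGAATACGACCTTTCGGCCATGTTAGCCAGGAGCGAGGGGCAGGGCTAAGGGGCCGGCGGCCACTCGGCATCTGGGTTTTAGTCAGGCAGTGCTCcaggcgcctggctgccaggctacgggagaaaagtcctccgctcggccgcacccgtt
HADHB: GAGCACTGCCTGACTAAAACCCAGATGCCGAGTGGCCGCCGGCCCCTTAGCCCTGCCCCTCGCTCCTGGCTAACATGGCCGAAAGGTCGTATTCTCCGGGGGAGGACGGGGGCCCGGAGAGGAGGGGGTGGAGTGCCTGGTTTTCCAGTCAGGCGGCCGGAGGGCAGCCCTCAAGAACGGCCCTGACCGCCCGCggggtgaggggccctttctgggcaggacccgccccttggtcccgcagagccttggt
A window was at hand for 32 of the 39 genes. A GC box on either strand was in 25 of these 32 windows (78.1%), against 55.8% of the windows of 15843 protein-coding genes and 42.6% of all 35116 windows. A CCAAT box on either strand was in 9 of the 32 (28.1%), against 34.5% of the protein-coding genes and 32% of all windows. The letters AGGTCA repeated with any base between the copies, a form to which PPAR and RXR bind, were in 0 of the 32 and in 0.0171% of all windows. This exact form is so rare that 0 of 32 cannot show whether such sites are absent. These are matches of letters in a window of this length and say nothing of whether a factor binds.

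In A549, 50 of the 59 probe sets were tested and 7 passed an adjusted p of 0.05 in limma. HADHB, ACAT1 and ECI2 were higher in ρ° cells (3 of 50, against 5.53% of all tested probe sets), and SLC27A2 with both its probe sets, HADH with 1 of its 3 and ETFB were lower (4 of 50, against 5.07% of all). In 143BTK-, 0 of 49 passed, as did 0% of all tested probe sets. At an unadjusted p under 0.05, 143BTK- had 2 of the 49 higher and 7 lower. Of all 13370 tested probe sets, 517 were higher and 625 lower at that threshold, 8.54% in either direction. The 7 came from ACSL1, HADH, CPT2, ACADM and ABCD3, so they are not 7 separate genes. The A549 counts lie close to their background, so the number of calls does not set these genes apart from the rest of the array.

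The change averaged over both lines was fitted on all 12 arrays, for 45 of the probe sets. HADHA and ECI1 were higher in ρ° cells (2 of 45, against 1.98% of all), and SLC27A2 with both probe sets and HADH with 2 were lower (4 of 45, against 1.72%). The change in A549 minus the change in 143BTK- was positive and past the threshold for 0 of 45 (0.994% of all) and negative for 2 of 45, both from SLC27A2 (0.869% of all). The median log2 change of the tested members was 0.09 in A549 and -0.02 in 143BTK-, beside -0.00 over all probe sets in each.

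The plainest view of the values is whether the 3 ρ° arrays overlap the 3 ρ+ arrays, where an exact two-sided permutation test cannot go below p = 0.1. In A549 the ρ° arrays lay above all ρ+ arrays for 12 of 50 probe sets (15.7% of all) and below for 9 of 50 (15.9% of all). These came from 11 and 6 genes. In 143BTK- the ρ° arrays lay above for 3 of 49 (7.46% of all) and below for 10 of 49 (7.53% of all). The 3 came from 2 genes. The 10 came from 6 genes, namely ABCD3, ACSL1, EHHADH, ETFDH, HADH and PEX19, so they are not 10 separate genes. EHHADH and ETFDH had signals near the lowest tested. In both lines at once the ρ° arrays lay above for 1 of 45, from HADHA (1.46% of all), and below for 3 of 45, the 3 probe sets of HADH (1.24% of all).

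**Figure D1:**
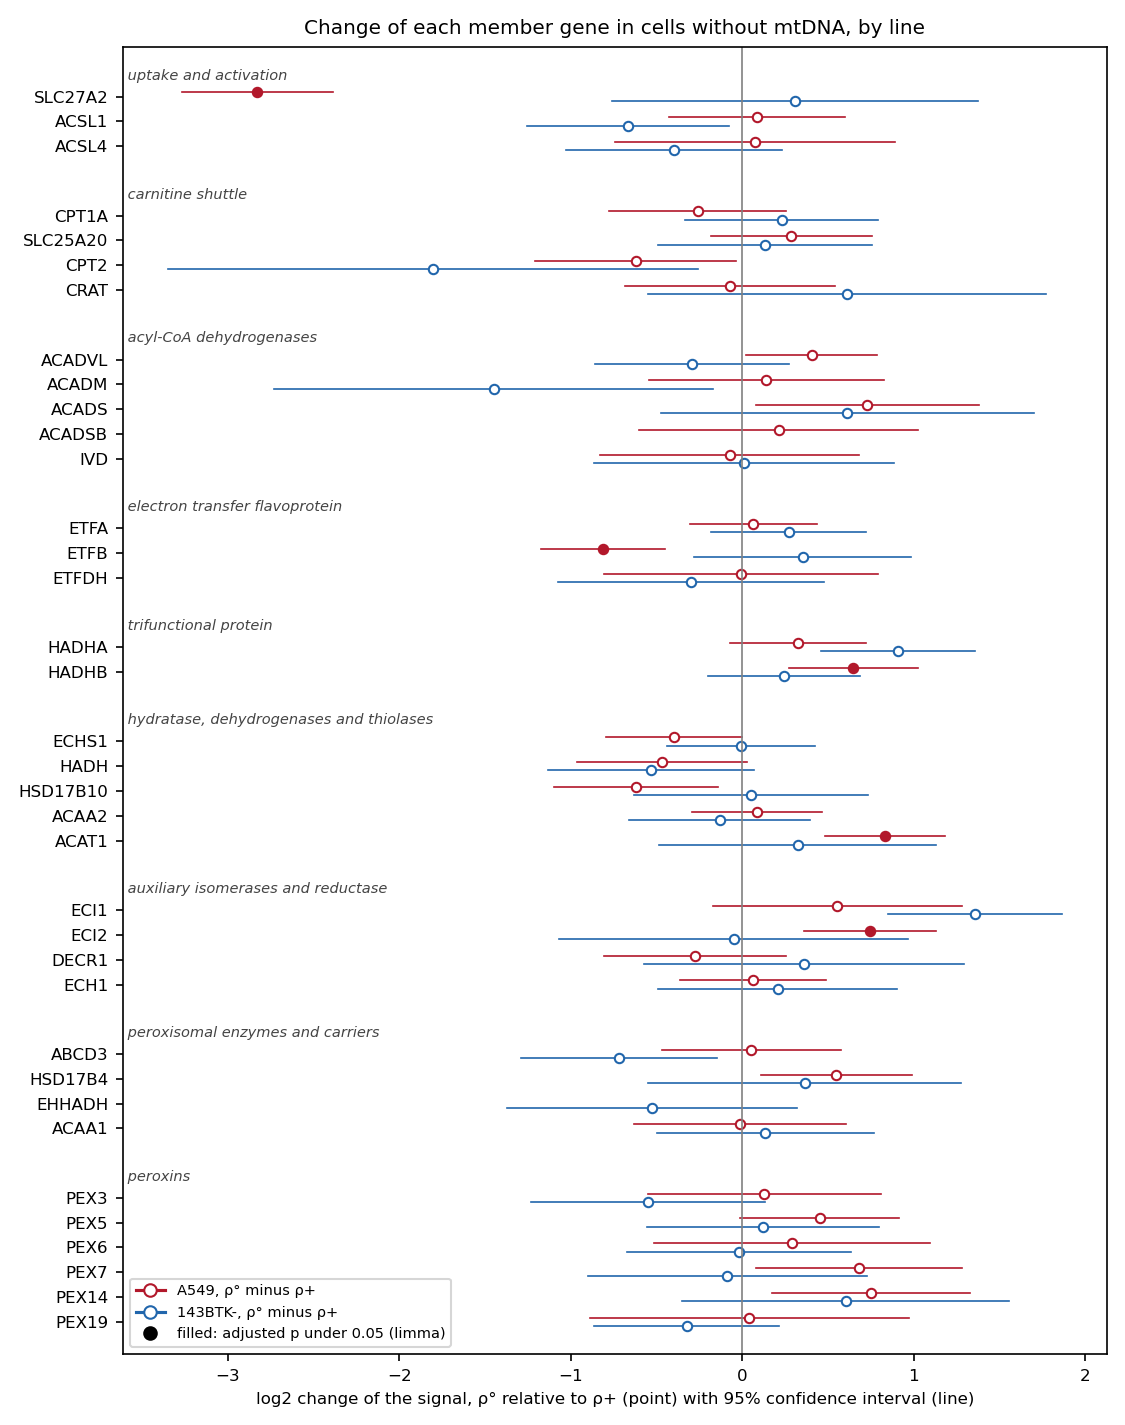
Log2 change of the signal in ρ° relative to ρ+ cells for each gene with a tested probe set (x axis), in A549 (red, drawn above) and 143BTK- (blue), with the 95% confidence interval from limma. Each gene is shown by its probe set with the highest mean signal, which for HADH is the one that differed least, and filled points passed an adjusted p of 0.05; SLC27A2 in A549 lies at -2.83, away from the other genes.

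SLC27A2, a very long-chain acyl-CoA synthetase that also takes up fatty acids, had the largest decrease of the 36 genes. Its probe set 205769_at had signals of 54.3, 51.4 and 61.4 in A549 ρ° arrays, against 370, 405.4 and 409.5 in A549 ρ+ arrays. The other probe set, 205768_s_at, had 51.8, 48.5 and 97.6 in A549 ρ° arrays, against 322.8, 322.4 and 305.9 in A549 ρ+ arrays. No depleted array came near a parental one in either probe set. The means were 55.7 ± 5.14 in A549 ρ° cells and 395 ± 21.7 in A549 ρ+ cells for 205769_at (SD, n = 3 each), a log2 change of -2.83 (SE 0.20, adjusted p = 0.00011 by limma). For 205768_s_at they were 66.0 ± 27.4 in A549 ρ° cells and 317 ± 9.64 in A549 ρ+ cells, a log2 change of -2.34 (SE 0.28, adjusted p = 0.00108 by limma). Both calls held under all 16 alternatives tried for this line. In these bulk samples, fewer cells that express a gene cannot be told apart from less RNA per cell.

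In 143BTK-, SLC27A2 was close to the lowest signals tested. The probe set 205769_at had 39.9, 15.2 and 14.7 in 143BTK- ρ° arrays, against 21.9, 13.9 and 15.4 in 143BTK- ρ+ arrays, and 205768_s_at had 18.6, 15.5 and 22 in 143BTK- ρ° arrays, against 18.4, 19.1 and 13.9 in 143BTK- ρ+ arrays. The groups overlapped in both, with log2 changes of 0.31 and 0.13 (adjusted p = 0.888 and 0.951 by limma). The change in A549 minus that in 143BTK- was -3.14 for 205769_at (SE 0.50, adjusted p = 0.00645 by limma) and -2.47 for 205768_s_at (SE 0.43, adjusted p = 0.0116 by limma). With 143BTK- signals this low in both groups, these differences rest on the A549 decrease and do not show that 143BTK- cells responded otherwise. The change averaged over the lines was -1.26 and -1.11 (adjusted p = 0.0168 and 0.0147 by limma), and the 143BTK- signals were too near the lowest tested to resolve a decrease there. Without the A549 ρ° A array the averaged change had an adjusted p of 0.0504 for 205769_at and 0.0505 for 205768_s_at, and without A549 ρ+ B that of 205769_at was 0.052 (limma).

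ACSL1 and ACSL4, which activate long-chain fatty acids and, for ACSL4, prefer arachidonic acid, did not pass in either line. ACSL1 was measured by 207275_s_at at 44.6, 45.7 and 43.6 in 143BTK- ρ° arrays, against 60.5, 68.8 and 85.2 in 143BTK- ρ+ arrays. By 201963_at it was at 21.4, 36.7 and 41.3 in 143BTK- ρ° arrays, against 50.7, 53 and 82.7 in 143BTK- ρ+ arrays. All depleted arrays were the lower ones in both, with log2 changes of -0.67 and -0.93 (unadjusted p = 0.0311 and 0.0273, adjusted p = 0.562 and 0.554 by limma). In A549 the same probe sets overlapped, at 0.09 and 0.21, and the differences between the lines of 0.75 and 1.14 did not pass (adjusted p = 0.268 and 0.201 by limma). ACSL4 had a log2 change of 0.07 in A549 and -0.40 in 143BTK-, with overlap in both.

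**Figure D2:**
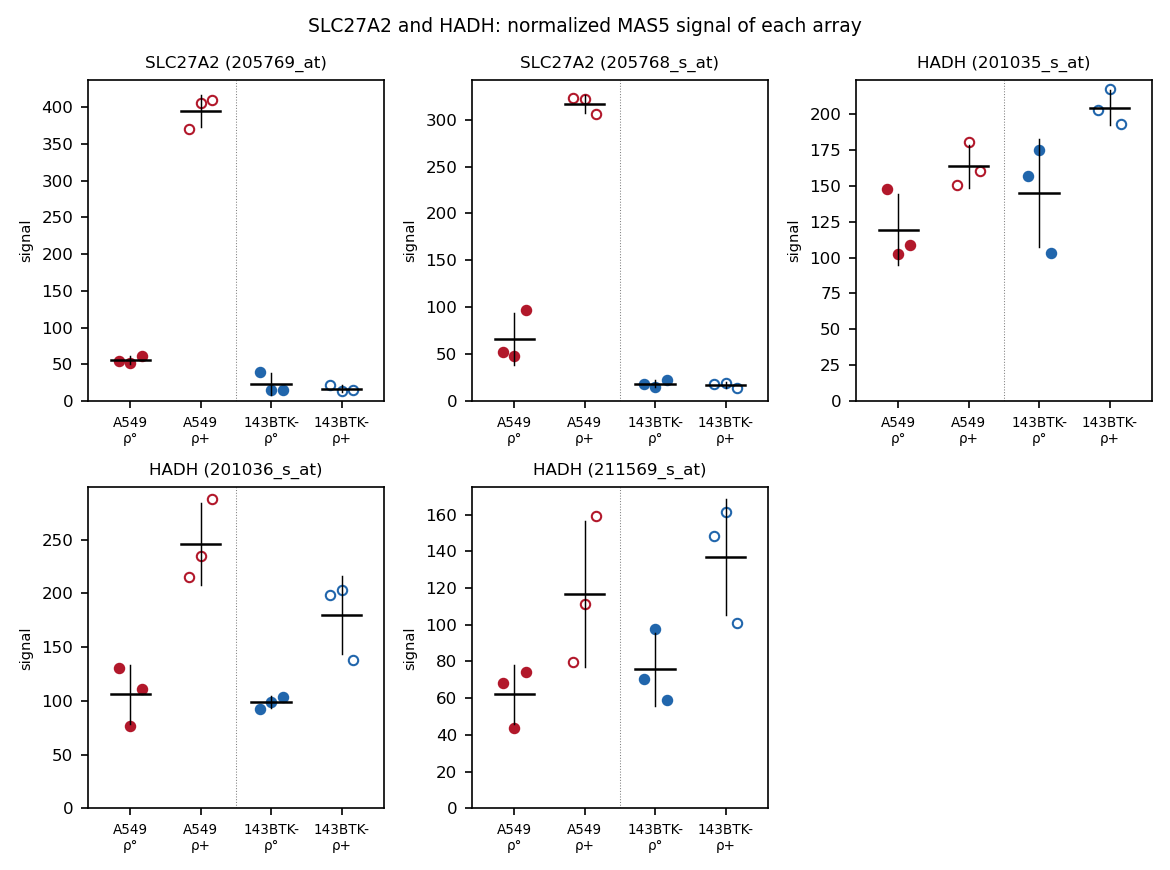
Normalized MAS5 signal (linear y axis from 0) of the probe sets of SLC27A2 and HADH on each of the 12 arrays, with ρ° as filled and ρ+ as open points, A549 in red and 143BTK- in blue, and the mean and SD of 3 arrays as black lines. SLC27A2 separates in A549 alone, where the means of 205769_at are 55.7 in ρ° and 395 in ρ+ cells, while in each HADH panel all ρ° points lie below the ρ+ points of their line; levels of the lines are on separate scales.

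HADH, the hydroxyacyl-CoA dehydrogenase of the mitochondrial matrix that handles medium and short chains, was lower in ρ° cells of both lines. Its probe set 201036_s_at had 130.7, 76.7 and 111.2 in A549 ρ° arrays, against 214.9, 234.9 and 288.3 in A549 ρ+ arrays. In the other line it had 92.8, 98.8 and 104 in 143BTK- ρ° arrays, against 198.9, 203.2 and 138.4 in 143BTK- ρ+ arrays. The depleted arrays were the lower ones throughout. The log2 change was -1.24 in A549 (SE 0.25, adjusted p = 0.0133 by limma) and -0.85 in 143BTK- (SE 0.25, adjusted p = 0.477 by limma). Averaged over the lines it was -1.04 (SE 0.18, adjusted p = 0.0094 by limma), and this call held under all 22 alternatives. The A549 call had an adjusted p of 0.0531 without the A549 ρ+ B array (limma).

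The other probe sets of HADH had the same direction. For 211569_s_at the signals were 68, 43.7 and 74.4 in A549 ρ° arrays, against 79.8, 111.2 and 159.1 in A549 ρ+ arrays, and 70.4, 97.6 and 59 in 143BTK- ρ° arrays, against 148.5, 161.2 and 101 in 143BTK- ρ+ arrays. For 201035_s_at they were 147.7, 102.2 and 108.7 in A549 ρ° arrays, against 150.4, 180.2 and 160 in A549 ρ+ arrays, and 157, 175 and 103 in 143BTK- ρ° arrays, against 203.1, 217.6 and 192.9 in 143BTK- ρ+ arrays. None of the groups overlapped, although the nearest A549 values of 201035_s_at were 147.7 and 150.4. The averaged log2 change was -0.88 for 211569_s_at (SE 0.23, adjusted p = 0.0485 by limma) and -0.50 for 201035_s_at (SE 0.17, adjusted p = 0.12 by limma). The call of 211569_s_at held under 10 of 21 alternatives and was lost without any 1 of 8 arrays, with adjusted p-values up to 0.123 (limma): in A549 the A and B arrays of ρ° and the B and C arrays of ρ+, and in 143BTK- the A and C arrays of ρ° and the A and B arrays of ρ+. The change in A549 minus that in 143BTK- was -0.38 for 201036_s_at, with a 95% interval of -1.14 to 0.37, and -0.03 and 0.06 for the other probe sets, with intervals of -1.004 to 0.94 and -0.67 to 0.80. The median change of the probe sets on chromosome 4, where HADH lies (positions 107989889 to 108035171), was 0.09 in A549 and -0.23 in 143BTK-.

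ECHS1, HSD17B10, ACAA2 and ACAT1 act beside HADH as the short-chain hydratase, a dehydrogenase of branched-chain breakdown, the thiolase of the spiral and the thiolase of acetoacetyl-CoA. ACAT1 rose in A549, with 731.4, 764 and 681.8 in A549 ρ° arrays, against 399.4, 397 and 422.4 in A549 ρ+ arrays. The log2 change was 0.84 (SE 0.16, adjusted p = 0.0103 by limma), with no overlap between the groups. The call was lost without A549 ρ° A (adjusted p = 0.0588 by limma) and without A549 ρ+ B (0.0546). Chromosome 11, which holds ACAT1, had a median change of 0.19 in A549, and ACAT1 changed by 0.64 when values were centred on their chromosome. In 143BTK- the signals of ACAT1 were 383.2, 481.8 and 528.6 in ρ° arrays, against 223.3, 348.1 and 640.3 in ρ+ arrays, and overlapped.

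ECHS1 and HSD17B10 were on the lower side in A549 without passing. ECHS1 averaged 887 ± 191 in A549 ρ° cells and 1149.7 ± 19.2 in A549 ρ+ cells (SD, n = 3 each), a log2 change of -0.40 (adjusted p = 0.183 by limma). HSD17B10 averaged 527 ± 159 in A549 ρ° cells and 785 ± 36.8 in A549 ρ+ cells, a log2 change of -0.62 (adjusted p = 0.0964 by limma). Neither pair of groups overlapped, and in 143BTK- both genes overlapped, with log2 changes of -0.01 and 0.05. ACAA2, by 202003_s_at, had 0.09 in A549 and -0.13 in 143BTK-.

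The trifunctional protein of the inner membrane carries out the last steps of the spiral on long chains, with the hydratase and dehydrogenase on the subunit from HADHA and the thiolase on that from HADHB. HADHA by 208631_s_at had 512.7, 457.3 and 504.7 in A549 ρ° arrays, against 447.8, 336.4 and 397.1 in A549 ρ+ arrays. It had 817.4, 961.6 and 884.5 in 143BTK- ρ° arrays, against 400.2, 471.7 and 555 in 143BTK- ρ+ arrays. The depleted arrays were the higher ones in both lines, and by a wide margin in 143BTK-. The log2 change was 0.33 in A549 (SE 0.18, adjusted p = 0.271 by limma) and 0.91 in 143BTK- (SE 0.20, adjusted p = 0.301 by limma), and the averaged change of 0.62 passed (SE 0.13, adjusted p = 0.0201 by limma). That call was lost without A549 ρ° A, A549 ρ+ B, 143BTK- ρ+ A or 143BTK- ρ+ B, with adjusted p-values of up to 0.0635 (limma).

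The other probe sets of HADHA were less clear. For 208629_s_at the log2 change was 0.73 in A549 and 0.11 in 143BTK-, with overlap in both. For 208630_at it was -0.09 in A549, with overlap, and 0.44 in 143BTK-, where 206.5, 257.1 and 324.6 in ρ° arrays stood above 179.3, 191.5 and 201.7 in ρ+ arrays. None of these passed (adjusted p of 0.154 and more by limma), and 1 of the 6 line values had the opposite sign. HADHB by its single probe set had 896.6, 987.9 and 812.6 in A549 ρ° arrays, against 512, 550.3 and 662.2 in A549 ρ+ arrays. This was a log2 change of 0.65 (SE 0.17, adjusted p = 0.0374 by limma) with no overlap.

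The HADHB call was among the least stable, as it was lost without any of 4 A549 arrays (the A and B arrays of ρ° and of ρ+), with adjusted p-values between 0.106 and 0.136 (limma). In 143BTK- the signals of HADHB were 552.1, 727.5 and 741.8 in ρ° arrays, against 587.2, 548.1 and 557.9 in ρ+ arrays. They overlapped, at a log2 change of 0.24 (adjusted p = 0.772 by limma). The averaged change of 0.45 had an adjusted p of 0.0645 (limma), and 0.0461 without A549 ρ+ C. The pair that shares the DNA between its starts thus had positive changes in both lines by 208631_s_at and 201007_at, of which the averaged change passed for HADHA and the A549 change for HADHB. The median change of chromosome 2 was -0.07 in A549 and 0.04 in 143BTK-.

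ECI1 and ECI2 are isomerases that move a double bond so that unsaturated chains can go on through the spiral, ECI1 in mitochondria and ECI2 in mitochondria and peroxisomes. ECI1 had 263.7, 294.3 and 234 in 143BTK- ρ° arrays, against 105.8, 99 and 102.4 in 143BTK- ρ+ arrays. It had 168.3, 159.8 and 151.1 in A549 ρ° arrays, against 104.4, 67 and 183.4 in A549 ρ+ arrays. The osteosarcoma groups stood far apart, and in A549 the parental C array alone was above the depleted ones. The log2 change was 1.36 in 143BTK- (SE 0.22, unadjusted p = 0.000178, adjusted p = 0.221 by limma), the largest increase of the members in that line, and 0.55 in A549 (SE 0.33, adjusted p = 0.311 by limma). The averaged change of 0.96 passed (SE 0.21, adjusted p = 0.0243 by limma).

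The averaged call of ECI1 was lost without A549 ρ° A, A549 ρ° B, A549 ρ+ B, 143BTK- ρ° A or 143BTK- ρ+ B, with adjusted p-values of 0.0537 to 0.0706 (limma). Without A549 ρ+ C, ECI1 rose in A549 as well, by 0.93 (adjusted p = 0.0347 by limma). Chromosome 16, which holds ECI1 at positions 2239402 to 2251587, had a median change of -0.32 in A549 and -0.02 in 143BTK-. The difference of the ECI1 change between the lines, -0.81, did not pass (adjusted p = 0.343 by limma).

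ECI2 rose in A549, with 497.7, 476.6 and 525.1 in A549 ρ° arrays, against 264.7, 313.6 and 318.8 in A549 ρ+ arrays. The log2 change was 0.74 (SE 0.17, adjusted p = 0.0239 by limma) and the groups did not overlap. This call held under 9 of 16 alternatives. It was lost without any A549 array but ρ+ C, with adjusted p-values between 0.0575 and 0.0989 (limma), and at 0.46 with values centred on their chromosome (adjusted p = 0.12 by limma). In 143BTK- the signals of ECI2 were 181.9, 390.2 and 249.6 in ρ° arrays, against 139.7, 289.1 and 486.1 in ρ+ arrays, with full overlap. DECR1, the reductase for dienoyl-CoA, and ECH1, an isomerase of dienoyl-CoA, overlapped in both lines, with log2 changes between -0.27 and 0.36.

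ETFA and ETFB encode the subunits of the electron transfer flavoprotein, and ETFDH the membrane enzyme that hands its electrons to ubiquinone. ETFB had 382.3, 442.5 and 400.4 in A549 ρ° arrays, against 744.4, 747.4 and 658.7 in A549 ρ+ arrays. The groups were far apart, at a log2 change of -0.81 (SE 0.16, adjusted p = 0.0133 by limma). The call was lost without A549 ρ° A (adjusted p = 0.0705 by limma) and without A549 ρ+ B (0.0718). In 143BTK- ETFB had 223.4, 272.4 and 211.5 in ρ° arrays, against 139.4, 257.9 and 171.4 in ρ+ arrays, which overlapped at a log2 change of 0.35 (adjusted p = 0.77 by limma).

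The difference of the ETFB change between the lines was -1.17 (SE 0.32) and did not pass (adjusted p = 0.075 by limma), though it was -1.41 and passed without 143BTK- ρ+ B (adjusted p = 0.0373 by limma). ETFA, the partner subunit, averaged 652 ± 51.4 in A549 ρ° cells and 625 ± 76.1 in A549 ρ+ cells (SD, n = 3 each), a log2 change of 0.07 with a 95% interval of -0.31 to 0.44. In 143BTK- ETFA had a log2 change of 0.27. ETFDH by 205530_at had -0.00 in A549 and -0.30 in 143BTK-, at signals near the lowest tested.

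**Figure D3:**
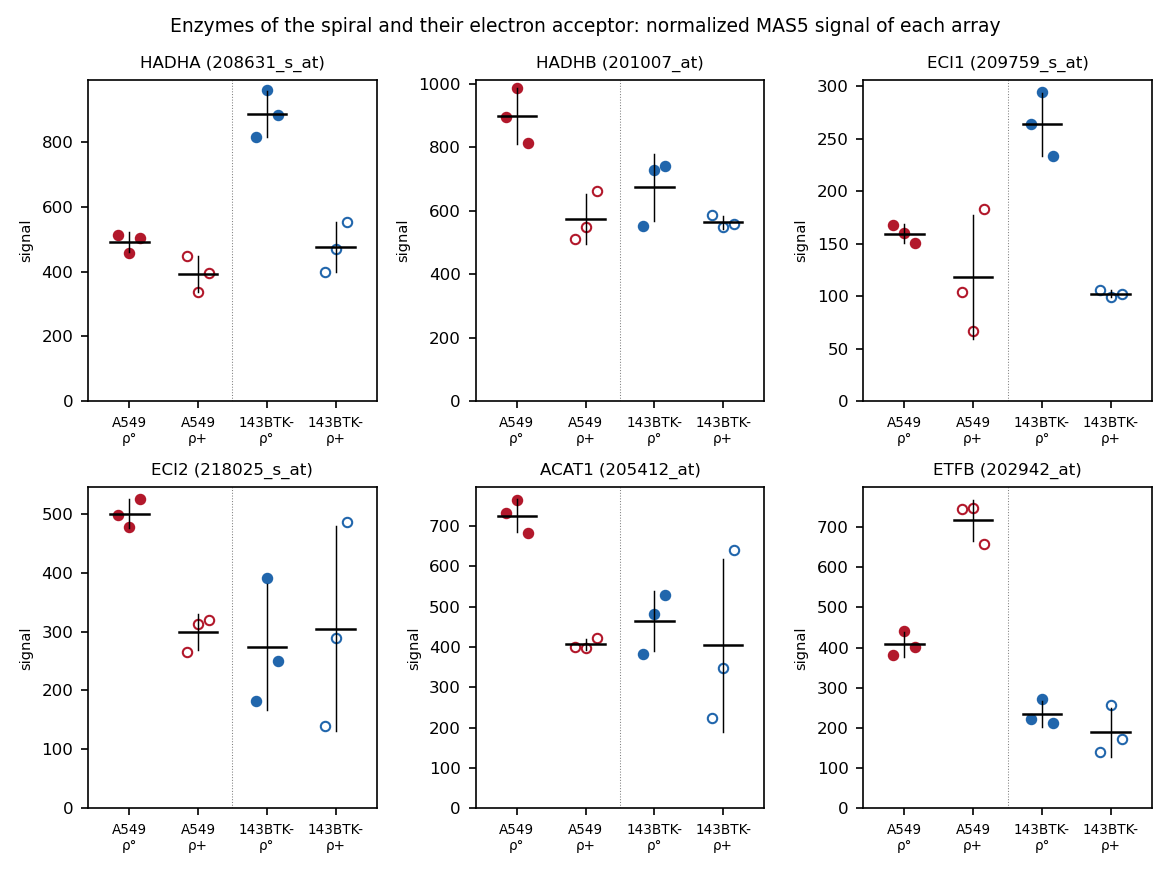
Normalized MAS5 signal (linear y axis from 0) of the 6 probe sets of HADHA, HADHB, ECI1, ECI2, ACAT1 and ETFB that passed in A549 or in the averaged change, on each array, with ρ° as filled and ρ+ as open points, A549 in red and 143BTK- in blue, and the mean and SD of 3 arrays as black lines. HADHA and ECI1 separate most in 143BTK-, with ECI1 means of 264 in ρ° and 102 in ρ+ cells, while ECI2, ACAT1 and ETFB separate in A549 and overlap in 143BTK-.

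The acyl-CoA dehydrogenases open each round of the spiral, ACADVL on very long, ACADM on medium and ACADS on short chains, and ACADSB and IVD on branched chains from amino acids. None of the 5 genes passed in any contrast. ACADS had 80, 81.9 and 96.6 in A549 ρ° arrays, against 34.6, 61.4 and 65.1 in A549 ρ+ arrays, a log2 change of 0.73 without overlap (adjusted p = 0.14 by limma). ACADVL had 673.4, 660.5 and 607.9 in A549 ρ° arrays, against 503.5, 553.9 and 416.9 in A549 ρ+ arrays, a log2 change of 0.41 without overlap (adjusted p = 0.163 by limma). In 143BTK- both overlapped, at 0.61 for ACADS and -0.29 for ACADVL.

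ACADM, the medium-chain enzyme, had 54.8, 21.6 and 133.7 in 143BTK- ρ° arrays, against 120.3, 138.2 and 194 in 143BTK- ρ+ arrays. Its depleted arrays differed more than 6-fold among themselves, and the log2 change of -1.45 had an SE of 0.57 (adjusted p = 0.562 by limma). In A549 its change was 0.14. ACADSB was tested in A549 alone, at 0.21, and IVD by 216958_s_at was at -0.07 in A549 and 0.01 in 143BTK-, where its other tested probe set was at -0.17.

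The carnitine shuttle, of CPT1A at the outer membrane, the carrier SLC25A20, CPT2 at the inner membrane and the acetyl transferase CRAT, had no member past the threshold. CPT1A, which sets the pace of entry, averaged 220.4 ± 43.6 in A549 ρ° cells and 264 ± 50.7 in A549 ρ+ cells by 203633_at, and 225 ± 10.7 in 143BTK- ρ° cells and 195 ± 44.9 in 143BTK- ρ+ cells (SD, n = 3 each). The groups overlapped in both lines, with log2 changes of -0.26 (95% interval -0.78 to 0.26) and 0.23 (-0.33 to 0.79). The other probe sets of CPT1A were dim, and those tested had log2 changes of -0.08 in A549 and -0.39 and -0.92 in 143BTK-, where the sign was thus not shared. CPT2 by 204263_s_at had 38.4, 48.2 and 40.5 in A549 ρ° arrays, against 64.2, 77.6 and 54.8 in A549 ρ+ arrays, a log2 change of -0.62 without overlap (adjusted p = 0.163 by limma). In 143BTK- it had 38.5, 10.1 and 4.7 in ρ° arrays, against 42.1, 59.4 and 31.3 in ρ+ arrays, a log2 change of -1.81 with overlap (SE 0.69, adjusted p = 0.554 by limma).

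CPT2 thus had negative changes in both lines that did not pass, nor did the averaged change of -1.21 (SE 0.39, adjusted p = 0.101 by limma). The 143BTK- ρ° signals of 10.1 and 4.7 lay below the lowest geometric mean signal kept in 143BTK-, 15.0. The sizes of the 143BTK- and averaged changes of CPT2 are thus uncertain. SLC25A20 had 112.7, 99.6 and 98.4 in A549 ρ° arrays, against 83.3, 82.3 and 88.8 in A549 ρ+ arrays. This was a small difference without overlap, a log2 change of 0.29 (adjusted p = 0.423 by limma), and in 143BTK- the carrier overlapped at 0.13. CRAT by 209522_s_at overlapped in both lines, at -0.07 in A549 and 0.61 in 143BTK-, and by its other probe set at 0.07 in A549.

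Of the peroxisomal enzymes and carriers, none passed. HSD17B4, the bifunctional enzyme for very long and branched chains, had 328.5, 385.3 and 384.6 in A549 ρ° arrays, against 206.5, 294.8 and 255 in A549 ρ+ arrays, a log2 change of 0.55 without overlap (adjusted p = 0.107 by limma). ABCD3, a membrane transporter that brings acyl-CoA into peroxisomes, had 96.8, 129.1 and 120.7 in 143BTK- ρ° arrays, against 172, 231.3 and 168.6 in 143BTK- ρ+ arrays. The depleted arrays were the lower ones, at a log2 change of -0.72 (SE 0.25, adjusted p = 0.536 by limma), while in A549 ABCD3 overlapped at 0.05. The difference of the ABCD3 change between the lines, 0.77, did not pass (adjusted p = 0.265 by limma). ACAA1, the peroxisomal thiolase, had log2 changes between -0.09 and 0.19 over its 2 probe sets and both lines, and EHHADH, the other bifunctional enzyme, was tested in 143BTK- alone, at -0.53 near the lowest signals.

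Among the peroxins, PEX5 and PEX7 are receptors for the import signals of peroxisomal proteins, PEX14 is part of the docking complex, PEX3 and PEX19 place membrane proteins and PEX6 recycles the receptor. None of the 6 genes passed, and in A549 all 6 had a positive log2 change by the probe set with the highest signal, between 0.04 and 0.75. The second tested probe set of PEX3 was at -0.15 there. PEX14 had 101.9, 85.5 and 94.1 in A549 ρ° arrays, against 46.3, 49.6 and 74.8 in A549 ρ+ arrays by 203503_s_at, a log2 change of 0.75 (adjusted p = 0.095 by limma). By 33760_at it had 60.1, 81.1 and 59.2 in A549 ρ° arrays, against 35.7, 49.2 and 39.4 in A549 ρ+ arrays, a log2 change of 0.69 (adjusted p = 0.136 by limma). Both probe sets separated the A549 groups.

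PEX7 by 211033_s_at averaged 86.1 ± 11.6 in A549 ρ° cells and 54.6 ± 13.5 in A549 ρ+ cells, and PEX5 by 203244_at 194 ± 29.8 in A549 ρ° cells and 141 ± 13.5 in A549 ρ+ cells (SD, n = 3 each). Neither overlapped, at log2 changes of 0.68 and 0.45 (adjusted p = 0.138 and 0.195 by limma). In 143BTK- the peroxins lay on either side of 0, between -0.55 for PEX3 and 0.60 for PEX14, and the probe sets of PEX14 differed in sign there. PEX19 had 81, 84.3 and 87.8 in 143BTK- ρ° arrays, against 103.3, 94.5 and 120.6 in 143BTK- ρ+ arrays by 201706_s_at, a log2 change of -0.32 without overlap (adjusted p = 0.749 by limma), and its other probe set lay likewise at -0.29.

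**Figure D4:**
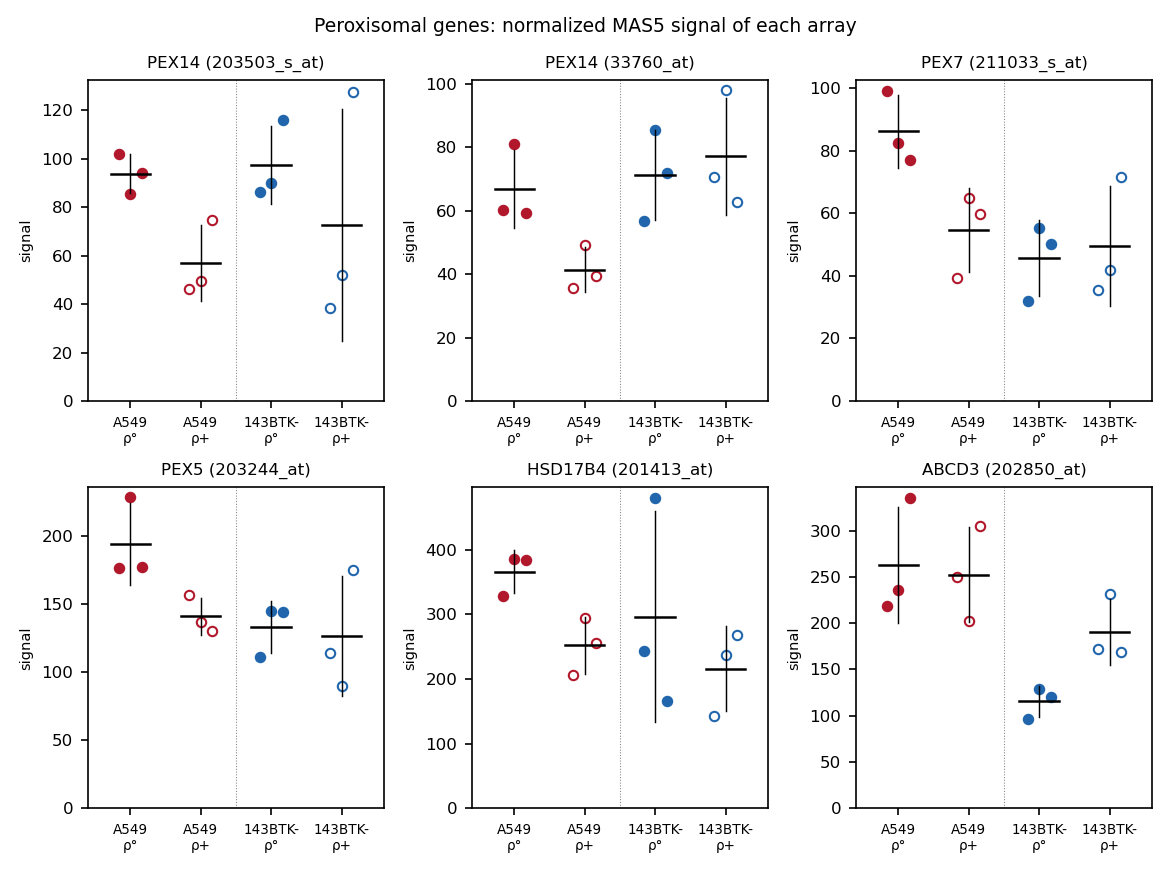
Normalized MAS5 signal (linear y axis from 0) of 6 probe sets of PEX14, PEX7, PEX5, HSD17B4 and ABCD3 on each array, chosen after their values were seen, with ρ° as filled and ρ+ as open points, A549 in red and 143BTK- in blue, and the mean and SD of 3 arrays as black lines. The A549 ρ° points of PEX14, PEX7, PEX5 and HSD17B4 lie above those of ρ+ cells, and ABCD3 separates in 143BTK- only; none of the 6 probe sets passed the adjusted p of 0.05.

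The rest of these pathways was read from 3 further lists, each gene by its probe set with the highest signal. The alternatives, with single arrays left out among them, were read for member probe sets only. Whether the calls of these lists hold under them was not tested. Of 48 other genes of fatty acid and branched-chain oxidation, 28 were tested in A549, where 1 rose and 3 fell (5.53% and 5.07% of all tested probe sets). ACAD8, the isobutyryl-CoA dehydrogenase of valine breakdown, rose to 109.6 ± 5.56 in A549 ρ° cells, against 46.8 ± 12.3 in A549 ρ+ cells (SD, n = 3 each), a log2 change of 1.26 (adjusted p = 0.0155 by limma). FABP5, a fatty acid-binding protein, fell to 200.3 ± 31.3 in A549 ρ° cells, against 539 ± 48.0 in A549 ρ+ cells, a log2 change of -1.44 (adjusted p = 0.00215 by limma). Its change differed between the lines by -1.82 (adjusted p = 0.00555 by limma). DBI, which carries acyl-CoA in the cytosol, fell by 1.16 on the log2 scale in A549 (adjusted p = 0.00553 by limma) and by 0.70 in the averaged change (adjusted p = 0.0263), and SLC22A5, the carnitine transporter of the plasma membrane, fell by 0.82 in A549 (adjusted p = 0.0431).

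Of 52 other peroxisome genes, 35 were tested in A549, where 2 rose and 4 fell, beside the same shares of all probe sets (5.53% and 5.07%). PECR, a peroxisomal enoyl-CoA reductase, rose to 60.2 ± 4.25 in A549 ρ° cells, against 15.3 ± 6.07 in A549 ρ+ cells (SD, n = 3 each), a log2 change of 2.05 (adjusted p = 0.00939 by limma). Its ρ+ mean lay below the lowest geometric mean signal kept in A549, 17.9, so PECR was tested only through its ρ° level and the size of its change is uncertain. TMEM135, a membrane protein of peroxisomes and mitochondria, rose by 1.57 on the log2 scale (adjusted p = 0.0116 by limma). IDI1 and FDPS, enzymes of isoprenoid synthesis, fell by 1.55 and 0.84 (adjusted p = 0.0047 and 0.0378 by limma), IDH1, an isocitrate dehydrogenase of cytosol and peroxisomes, by 1.22 (0.00553), and GNPAT, which opens ether lipid synthesis, by 0.76 (0.0281). In the averaged change IDI1 alone of this list passed, at -0.997 (adjusted p = 0.0147 by limma).

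Of 29 regulators and targets of the PPAR receptors, 20 were tested in A549, where 2 rose and 0 fell (5.53% and 5.07% of all). PLIN2, the coat protein of lipid droplets, rose to 352 ± 104 in A549 ρ° cells, against 95 ± 5.23 in A549 ρ+ cells (SD, n = 3 each), a log2 change of 1.85 (adjusted p = 0.00178 by limma). Its mean signals in the other line were 718.5 in 143BTK- ρ° cells and 625 in 143BTK- ρ+ cells, the change differed between the lines by 1.62 (adjusted p = 0.0284 by limma), and the averaged change was 1.04 (adjusted p = 0.00702). NRIP1, a corepressor, rose by 1.28 on the log2 scale in A549 (adjusted p = 0.0276 by limma). In 143BTK- none of the genes of the 3 lists passed, where 0 to 1 a list were higher and 1 a list was lower at an unadjusted p under 0.05. The median log2 change in A549 was 0.20 for the oxidation list, -0.02 for the peroxisome list and -0.04 for the PPAR list, beside -0.03 over all genes.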

How the data were processed

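Total RNA of 12 extractions was read on HG-U133A arrays. The deposited values are MAS5 signal intensity values on a linear scale, which the authors computed with Microarray Suite 5.0 and quantile-normalized over the 6 arrays of each line, so levels are not comparable between lines and the number of arrays limits the precision. Signals as deposited were put on the log2 scale with no offset. The 60% of probe sets with the highest mean log2 signal in a line stood in for the removal of probe sets Absent on all 6 arrays. Changes were tested with limma 3.58.1 (R 4.3.3; lmFit, eBayes with intensity trend, two-sided) over all kept probe sets with Benjamini-Hochberg adjustment at 0.05, per line and on 12 arrays for the mean change and the difference between lines. limma replaced the power law global error model of the methods, which was fitted on arrays not used here. The scripts were tested on simulated data.

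Members and lists were chosen with earlier results of these data known. Values per array are given for members called in any contrast and for members apart in the same direction in both lines; others named with values were chosen after these were seen. Each gene was stood for by the kept probe set whose mean log2 signal was highest. Of 19071 probe sets with a single gene in the platform annotation, 19059 matched RefSeq (GRCh38.p14) by Entrez ID; 1043 had several genes and 2169 none. Promoters came from RefSeq. Alternatives changed the normalization, offset, filter, trend, replicate block, chromosome centring and arrays used. The plots used Python 3.11.15 and matplotlib 3.10.9.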

Additional observations from a re-analysis of the deposited data

Results flagged for a closer look

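The change of SLC27A2 in A549 minus that in 143BTK- passed the test of the difference, with -3.14 on the log2 scale for 205769_at (adjusted p = 0.00645 by limma) and -2.47 for 205768_s_at (adjusted p = 0.0116). The mean signals of 205769_at were 55.7 in A549 ρ° cells and 395 in A549 ρ+ cells, and 23.3 in 143BTK- ρ° cells and 17.1 in 143BTK- ρ+ cells, where the lowest geometric mean signal tested in 143BTK- was 15.0. No decrease could have been resolved in 143BTK- at these signals, so the differences rest on the A549 decrease.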

How the results depend on the processing

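The SLC27A2 decrease in A549 and its difference between the lines passed wherever its probe sets were tested, and so did the averaged decrease of HADH by 201036_s_at. With a geometric mean signal of at least 100, the averaged change called 3 member probe sets (against 6, with 21 tested) and the difference 0 (against 2), since SLC27A2 and HADH by 211569_s_at are not tested there in both lines, and of all probe sets 317 were called in the averaged change and 141 in the difference. Without the intensity trend, 4 members were called in A549 (against 7), and over all probe sets the calls were 745 in A549 (against 1417), 235 in the averaged change (against 443) and 124 in the difference (against 223). Without it HADHB, ECI2 and ETFB lost their call in A549 (adjusted p = 0.11, 0.0698 and 0.0546 by limma), as did HADHA and HADH by 211569_s_at in the averaged change (0.0501 and 0.0655). HADH by 211569_s_at also lost it with no filter (0.0754) and centred on the chromosome (0.0874). Centred on the median of the chromosome, the averaged change called 276 probe sets and the difference 148.

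With single arrays left out, members called were 2 to 10 in A549, 0 in 143BTK-, 1 to 8 in the averaged change and 2 to 3 in the difference. Over all probe sets the calls then ran between 422 and 1916 in A549, 111 and 544 in the averaged change and 54 and 311 in the difference. The lowest for members were 2 without A549 ρ+ B and 3 without A549 ρ° A in A549, and 1 without A549 ρ° A, 2 without A549 ρ+ B and 3 without 143BTK- ρ+ B in the averaged change. With both parental C arrays left out they were 10, 0, 8 and 2. The causes were not tested.

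The replicate letters were not used as pairs in the main tests. Deviations of same-letter arrays correlated between -0.11 and 0.39, over 0.1 in 2 of the pairs. Of the ρ° arrays, 4 of 6 correlated best with their own letter, namely A, B and C of A549 and A of 143BTK-. A pairing by letter, above all in A549, can thus not be excluded. With the letter as a replicate block, 6 members were called in A549, 0 in 143BTK-, 6 in the averaged change and 2 in the difference, and HADHB in A549 no longer passed (adjusted p = 0.0543 by limma). With 3 arrays a group and signals near the filter, changes of SLC27A2 and CPT2 in 143BTK-, and of ETFDH and EHHADH, could not be resolved.

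Changes near 0 that passed in no setting turned sign in some. With single arrays left out, SLC27A2 in 143BTK- ran between -0.16 and 0.56 by 205769_at and between -0.0183 and 0.25 by 205768_s_at, ECI2 in 143BTK- between -0.52 and 0.38 and ACAT1 in 143BTK- between -0.0362 and 0.72. The difference between the lines for HADH ran between -0.28 and 0.22 by 211569_s_at and between -0.17 and 0.22 by 201035_s_at. Without both parental C arrays, SLC27A2 by 205768_s_at was -0.0183, ECI2 0.38 and the HADH difference by 211569_s_at 0.42. Centred on the chromosome, SLC27A2 by 205768_s_at was -0.0614 in 143BTK- and the HADH difference by 201035_s_at was -0.26, and with 64 added that by 211569_s_at was 0.0164. Every other log2 change of the probe sets called in any contrast, and of the third HADH probe set, kept its direction under the alternatives run.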
